A study of Rattus norvegicus with 17 samples.

Results

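The hypoxia-inducible factors and a set of their regulators and targets were followed in the colon mucosa of rats fed a high or a low calcium diet. The 10 genes are Hif1a and Epas1, which encode the oxygen-regulated subunits HIF-1alpha and HIF-2alpha, Arnt, which encodes their constant partner, the prolyl hydroxylases Egln1 and Egln3, and the targets Vegfa, Slc2a1, Bnip3, Pfkfb3 and Stc1. A probe was taken when the gene name in the array files, with the endings _predicted and _mapped removed, was one of these symbols in any case. That gave 12 probes, all of which passed the filter on dim probes, of 41012 probes on the array and 27083 tested. Each gene is given by its brightest probe among the 23134 genes tested, and Hif1a and Vegfa had 2 probes each. The set was chosen by the measured Epas1 ratio, which was higher at high calcium in these same arrays, so the diet differences of the 10 genes are given as a description. The fit's calls on them appear as 1 count beside that of all probes, and nothing is read from it.

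All 17 animals were females of the inbred Fisher 344 background carrying the HLA-B27/β2-microglobulin transgenes, which give rise to colitis, and were 8 to 10 weeks old when feeding began. The high calcium group held 8 rats fed a purified humanized Western diet with 120 mmol calcium per kg, where calcium replaced glucose. The low calcium group held 9 rats fed that diet with 30 mmol calcium per kg. Both groups thus carried the transgenes and ate the Western diet. RNA from the scraped mucosa of each rat, labelled with Cy5, was hybridised beside a Cy3-labelled pool of all the animals on a 2-colour array, and every level below is a log2 ratio of 1 rat to that pool. A value of 0 therefore equals the pool. Such ratios can be compared between rats for 1 gene but not between genes.

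In cells with enough oxygen, prolyl hydroxylases mark the HIF alpha subunits for binding by the von Hippel-Lindau protein and for breakdown. When oxygen is short, or when inflammatory signals act, the alpha subunits accumulate, pair with ARNT and switch on genes whose control regions hold a hypoxia response element. Alpha subunit activity is set largely at the protein level, so an mRNA level of Hif1a or Epas1 is not a measure of it. Colonic epithelium sits next to the oxygen-poor lumen, and in mice HIF-1alpha has been tied to barrier genes and HIF-2alpha to iron absorption in the gut.

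Between 60.0% and 71.9% of probes lay well above background per array, and the median Cy5 signal ran from 146.8 to 180.8 over a median background of 43.5 to 53.5. The number of rats limits the precision. All 10 epithelial markers tested were well above background on all 17 arrays. Of these, 7 were higher at high calcium, with a median difference of 0.08, and their mean ratio ran from -0.09 to 0.15 in the high calcium rats, against -0.18 to 0.17 in the low calcium rats. Marker levels of other cells differed between the diets as follows. All 9 fibroblast markers tested were lower at high calcium, with a mean ratio of -0.75 to 0.21 in the high calcium rats, against -0.12 to 0.44 in the low calcium rats. Macrophage markers were lower for 8 of 9 (-0.51 to 0.00 in high calcium rats, against -0.17 to 0.22 in low calcium rats), and neutrophil markers for 7 of 7 (-0.54 to 0.24, against -0.25 to 0.44). Of 9 endothelial markers 7 were lower (-0.22 to 0.04, against -0.11 to 0.07), as were 4 of 7 smooth muscle markers (-0.21 to 0.14, against -0.27 to 0.16) and 5 of 5 red blood cell markers (-0.36 to 0.33, against -0.16 to 0.41). None of these marker genes passed the test over all probes, and the part of cell makeup in the results below was not tested. In scrapings, fewer cells of a type and less RNA per cell cannot be told apart. High calcium rat 3 and low calcium rat 16 had fibroblast marker means on the other side of 0 from their group means (0.21 against -0.28, and -0.08 against 0.20), as had low calcium rat 15 at -0.12. Results are also given without rats 3 and 16 where they change, an unplanned pair picked by these marker values. Low calcium rat 15 was not part of that pair. Each rat was also left out in turn.

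Promoter windows of the rat RefSeq table (GRCr8), reaching 250 bases before to 50 bases after an annotated gene start, were found for 9 of the 10 genes. The 5 printed here belong to Epas1 and to the 4 members whose ratios followed it from rat to rat, as given further on. Capitals mark the core letters of a hypoxia response element, ACGTG or GCGTG, on either strand. Matches on the other strand read CACGT or CACGC here, and the palindrome CACGTG counts as 2 overlapping matches.
Epas1 (chr6:13624680-13624979, minus strand): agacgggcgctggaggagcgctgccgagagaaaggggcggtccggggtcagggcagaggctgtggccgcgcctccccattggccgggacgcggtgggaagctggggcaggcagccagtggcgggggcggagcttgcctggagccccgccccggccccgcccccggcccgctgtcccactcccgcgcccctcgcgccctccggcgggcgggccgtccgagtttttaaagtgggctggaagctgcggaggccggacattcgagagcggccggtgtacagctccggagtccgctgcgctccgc
Egln1 (chr19:69804632-69804931, minus strand): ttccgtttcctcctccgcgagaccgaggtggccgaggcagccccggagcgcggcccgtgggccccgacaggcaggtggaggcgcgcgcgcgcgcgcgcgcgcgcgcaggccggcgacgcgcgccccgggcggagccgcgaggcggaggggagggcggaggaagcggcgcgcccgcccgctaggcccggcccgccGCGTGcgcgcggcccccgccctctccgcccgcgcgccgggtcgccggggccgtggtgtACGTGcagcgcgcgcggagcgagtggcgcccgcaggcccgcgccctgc
Egln3 (chr6:77410966-77411265, minus strand): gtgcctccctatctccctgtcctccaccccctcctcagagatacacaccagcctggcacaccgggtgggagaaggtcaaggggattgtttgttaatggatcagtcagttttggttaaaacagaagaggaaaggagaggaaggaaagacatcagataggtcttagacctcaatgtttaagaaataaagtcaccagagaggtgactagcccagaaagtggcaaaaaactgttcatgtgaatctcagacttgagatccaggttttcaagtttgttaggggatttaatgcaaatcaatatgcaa
Slc2a1 (chr5:138002272-138002571, plus strand): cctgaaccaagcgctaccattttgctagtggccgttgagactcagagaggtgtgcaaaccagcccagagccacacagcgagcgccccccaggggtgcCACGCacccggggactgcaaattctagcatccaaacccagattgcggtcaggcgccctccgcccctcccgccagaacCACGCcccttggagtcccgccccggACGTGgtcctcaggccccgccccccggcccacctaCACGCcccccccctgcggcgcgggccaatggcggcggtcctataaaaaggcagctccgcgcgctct
Bnip3 (chr1:203154913-203155212, minus strand): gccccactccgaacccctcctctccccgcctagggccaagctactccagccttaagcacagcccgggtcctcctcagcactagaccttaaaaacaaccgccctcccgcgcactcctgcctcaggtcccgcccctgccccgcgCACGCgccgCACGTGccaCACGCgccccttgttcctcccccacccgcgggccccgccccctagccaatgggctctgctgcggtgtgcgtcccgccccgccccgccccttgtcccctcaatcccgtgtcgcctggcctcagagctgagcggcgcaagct
Slc2a1 and Bnip3 hold 4 matches each, and in Bnip3 all lie from 108 to 90 bases before the start. Egln1 holds 2 matches, at 56 bases before and 3 bases after the start. Epas1 and Egln3 hold 0 in these windows. Of the members whose windows are not printed, Hif1a holds 3, Pfkfb3 2 and Arnt 1, and both windows of Vegfa hold 0. For comparison, 41.6% of all 33469 windows of this length hold at least 1 match, and 19.3% hold ACGTG on either strand. The windows compared were not matched for their share of G and C, so no enrichment is read from these counts. That share was 75.7% for Epas1, 84.7% for Egln1 and 44.7% for Egln3. Stc1 had no entry.

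Epas1 is the gene for HIF-2alpha, which is prominent in endothelium and in intestinal epithelium. The diets separated most clearly for this member, by whose difference the set was chosen. Its probe (chr6:10295169-10295420 in rn3, per the file headers) read -0.01 at the lowest, 0.09 at the median and 0.44 at the highest in the high calcium rats. The low calcium rats read -0.30, -0.10 and 0.04 at the same points. The ranges overlapped only narrowly: 5 of 8 high calcium rats lay above every low calcium rat, and 7 of 9 low calcium rats lay below every high calcium rat. Every high calcium rat was above the low calcium mean. The means were 0.13 ± 0.16 in high calcium rats and -0.11 ± 0.11 in low calcium rats (SD, n = 8 and 9), a difference of 0.24 ± 0.06 (SE of limma's fit) or 1.18-fold. The sign of this difference was fixed by the choice of the set. That choice also bears on the size of the difference and on the place of Epas1 among the members. The probe was a single spot with a Cy5 signal of 329 in high calcium rats and 258 in low calcium rats, over backgrounds of 50.2 and 52.5.

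The arrays lay on 5 slides, of which 4 held 2 high and 2 low calcium rats each. On those 4 slides the Epas1 difference was 0.25, 0.29, 0.12 and 0.30. Over 31 ways of processing the arrays or leaving out rats it ran from 0.18 with high calcium rat 18 and low calcium rat 5 left out to 0.44 with the scanner software's processed signals. Some of these ways, such as other filters on dim probes, cannot change the difference of a probe. Without high calcium rat 3 and low calcium rat 16 the Epas1 difference was 0.25. These values show how the size varied and are no evidence of a direction, since the same arrays chose the gene.

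**Figure D1:**
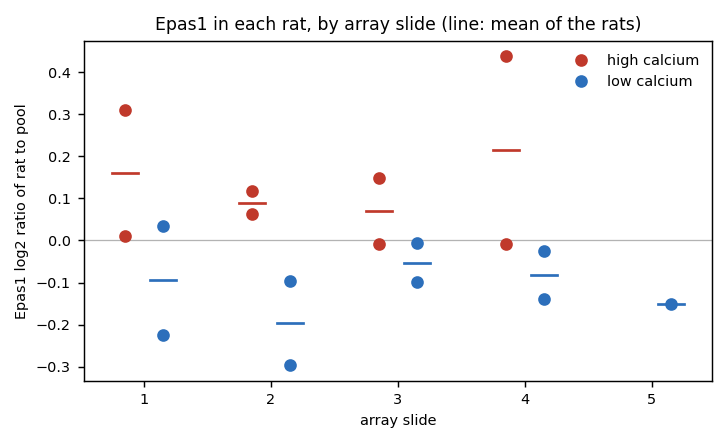
Epas1 log2 ratio of each rat to the pool (vertical axis) by array slide (horizontal axis), high calcium rats to the left in red and low calcium rats to the right in blue, with a line at the mean of each pair. The high calcium mean lies above the low calcium mean on the 4 slides that hold both diets, by 0.12 to 0.30; slide 5 held low calcium rat 1 alone.

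Of the 10 members, 1 (Epas1) had an unadjusted p under 0.05 in limma's fit, where 8.79% of all 27083 probes did (3.95% higher and 4.84% lower at high calcium), and 0 members passed after Benjamini-Hochberg adjustment, where 0 of all probes did. Nothing is read from the members' counts, since the diet contrast chose the set. The groups did not overlap for 0 of the 10 members and for 0.0295% of all probes. The other 9 members differed by 0.02 to 0.12 in either direction.

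Hif1a, the gene for HIF-1alpha, the more widely expressed alpha subunit, overlapped widely between the diets. Its brightest probe (chr6:96467271-96467330, rn3) read from -0.53 through a median of -0.13 to -0.05 in high calcium rats, against -0.41 through -0.11 to 0.12 in low calcium rats. High calcium rat 2 was the lowest of all 17 rats and low calcium rat 15 the highest. The difference was -0.07 ± 0.07. A second probe (chr6:96466730-96466789), printed as 10 spots on each array, differed by -0.09 ± 0.08 and followed the first over the 17 rats (r = 0.92 within a diet, as a description). The SD between these 10 spots on 1 array had a median of 0.03, and the SD of the probe between rats was 0.18 at high calcium and 0.17 at low calcium. The SD between spots covers spot noise only. Differences in RNA extraction, labelling and hybridisation are part of the SD between rats and were not measured separately.

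Arnt (chr2:190348041-190348100) encodes the partner that both alpha subunits need to bind DNA. Its probe was dim, with a Cy5 signal of 111 in each diet over backgrounds of 47.25 at high and 47.5 at low calcium. How far the processing narrowed the spread of so dim a probe was not tested. The Arnt ratios ran from -0.05 through -0.03 to 0.23 in high calcium rats and from -0.10 through 0.03 to 0.15 in low calcium rats. The highest value of all was that of high calcium rat 18, well above the next rat of its diet at 0.05. The difference was -0.02 ± 0.05, and its sign turned with the Cy5 channel alone and with the deposited series matrix.

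The prolyl hydroxylases are both oxygen sensors and, as background, HIF targets themselves. Egln1 (PHD2, the main HIF hydroxylase; chr19:55086140-55087578) ran from -0.03 through 0.09 to 0.26 in high calcium rats, against -0.11 through 0.08 to 0.19 in low calcium rats. The diets overlapped over most of this range, with a difference of 0.04 ± 0.05. Egln3 (PHD3, a hydroxylase strongly induced by hypoxia; chr6:74455084-74455143) had a wide spread, from -0.26 through -0.05 to 0.40 in high calcium rats and from -0.53 through -0.02 to 0.30 in low calcium rats. Low calcium rats 5 and 16, at -0.53 and -0.45, lay below every high calcium rat, and high calcium rat 18 lay above all others. The difference was 0.06 ± 0.10.

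Among the targets, Slc2a1 is the glucose transporter GLUT1 (chr5:139724005-139724064, 10 spots). It ran from -0.28 through -0.02 to 0.30 in high calcium rats, against -0.48 through -0.01 to 0.22 in low calcium rats. Low calcium rats 5, 11 and 16 lay below every high calcium rat, and high calcium rat 18 was again the highest. Its difference was 0.08 ± 0.09. The SD between rats was 0.16 at high calcium and 0.24 at low calcium, and the median SD between spots on 1 array, again spot noise only, was 0.04. Bnip3, a mitochondrial protein of mitophagy and cell death (chr1:198833427-198833486), ran from -0.02 through 0.11 to 0.45 in high calcium rats, against -0.29 through 0.16 to 0.39 in low calcium rats. Low calcium rats 1, 5 and 16 lay below every high calcium rat, while high calcium rat 2 was the highest of all. The difference was 0.04 ± 0.08. For Egln3, Slc2a1 and Bnip3 the sign turned when high calcium rat 18 and low calcium rat 5 were left out together (-0.05, -0.02 and -0.02), and that of Bnip3 also without high calcium rat 2 or low calcium rat 5 alone.

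Vegfa, the main angiogenic growth factor, had a small negative difference by both of its probes. The brightest (chr9:10519066-10519125) ran from -0.09 through -0.01 to 0.09 in high calcium rats, against -0.13 through 0.01 to 0.26 in low calcium rats, with a difference of -0.06 ± 0.05. The second (chr9:10525902-10526287, 10 spots) differed by -0.08 ± 0.08 and followed the first less closely than the Hif1a pair did (r = 0.62). Pfkfb3, whose product makes the activator of phosphofructokinase (chr17:78269106-78269165), ran from -0.17 through -0.09 to 0.07 in high calcium rats and from -0.26 through -0.01 to 0.15 in low calcium rats. The low end was low calcium rat 5, far from the next of its diet at -0.04, and the difference was -0.06 ± 0.05. Vegfa turned sign with median centring, and Pfkfb3 with the Cy5 channel alone and with the series matrix.

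Stc1, stanniocalcin 1, a secreted glycoprotein first known for calcium balance in fish, was near the limit of the array. Its probe (chr15:49592800-49592859) was well above background in 2 of 8 high calcium rats and 6 of 9 low calcium rats, whereas the other 9 members were so on all 17 arrays. It thus passed the filter mostly through the low calcium rats. The ratios ran from -0.43 through 0.01 to 0.26 in high calcium rats, against 0.00 through 0.10 to 0.23 in low calcium rats. High calcium rat 18 was far below the others, and 4 of 8 high calcium values were under the whole low calcium range. The difference was -0.12 ± 0.07, and it reached -0.97 with the processed signals.

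**Figure D2:**
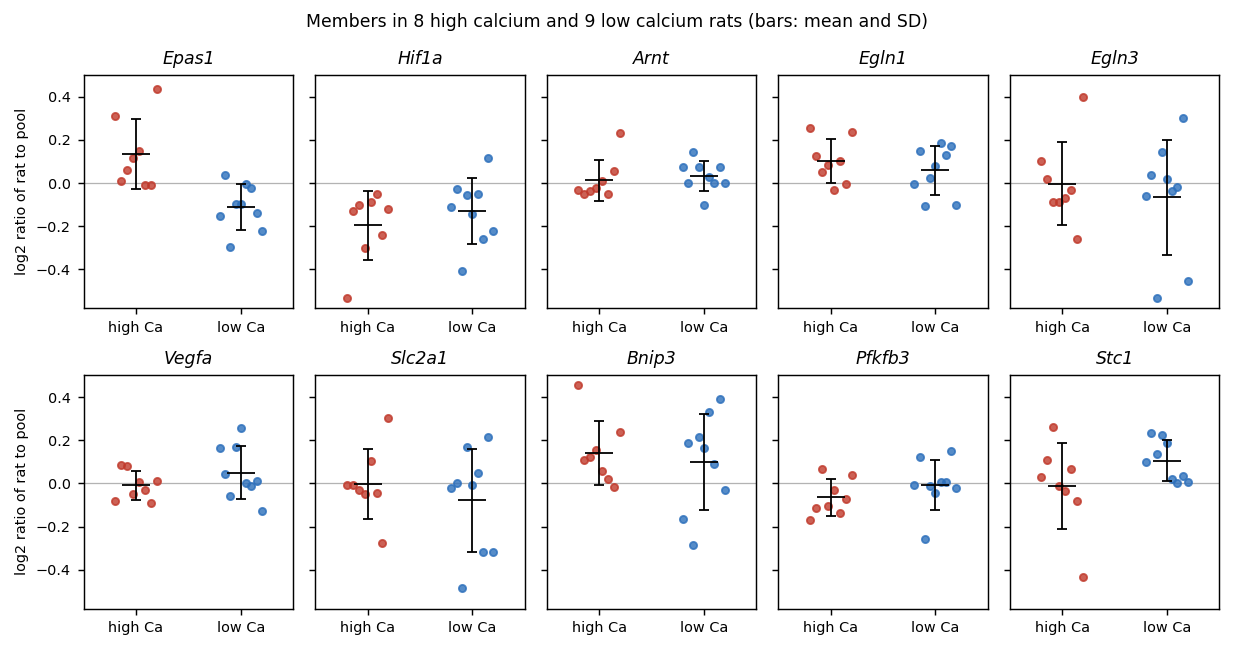
Log2 ratio of each rat to the pool (vertical axis, shared) for the brightest probe of each of the 10 members, with 8 high calcium rats on the left in red and 9 low calcium rats on the right in blue; black bars are the mean and SD. The diets separate most for Epas1 (means of 0.13 and -0.11), by whose difference the set was chosen, and overlap for the other 9 members.

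For several members the highest or lowest rat of a diet was the same. How often each rat was an extreme over all genes was not counted, so the ranks are not read as particular to the members. High calcium rat 18 was the highest of its diet for 4 members (Epas1, Arnt, Egln3 and Slc2a1) and the lowest for Stc1. Low calcium rat 5 was the lowest of its diet for 7 of 10 members (Epas1, Hif1a, Egln1, Egln3, Slc2a1, Bnip3 and Pfkfb3), and low calcium rat 15 the highest for 5 (Hif1a, Egln3, Slc2a1, Bnip3 and Pfkfb3). High calcium rat 17 was the lowest of its diet for Egln3, Vegfa, Slc2a1 and Bnip3. Markers stood apart in the same animals: the fibroblast, macrophage and neutrophil means of rat 18 were -0.75, -0.51 and -0.54, the lowest of all 17 rats, as was its endothelial mean of -0.22, while its epithelial mean of 0.15 was the second highest. Low calcium rat 15 had the highest epithelial mean, 0.17, and the lowest smooth muscle mean, -0.27. The red blood cell mean of rat 5 was 0.41, the highest. Their part in these ratios was not tested.

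How far the members moved together was asked within each diet, so that the contrast that chose the set played no part. Each diet's mean was subtracted, and Pearson's r was tested over 17 rats by 100000 permutations within the diet. Of the 9 relations of Epas1, 4 passed after Benjamini-Hochberg adjustment over the 9, and all 4 were positive. The same 4 were those with an unadjusted permutation p under 0.05, a share that was 12.3% over all 23038 other genes set against Epas1 in the same way (7.42% positive). An r of at least 0.58, the lowest of the 4, was found for 3.45% of these genes, and their median r was 0.03. Adjusted over all of these genes, 0 relations passed, and the smallest permutation adjusted p, 0.292, was that of Egln1, Egln3 and Bnip3 among other genes. Rats with more Epas1 had more Egln1 (r = 0.74, permutation p = 0.00107, adjusted 0.006435), Egln3 (r = 0.69, permutation p = 0.00143, adjusted 0.006435), Bnip3 (r = 0.66, permutation p = 0.00262, adjusted 0.00786) and Slc2a1 (r = 0.58, permutation p = 0.01065, adjusted 0.0240). Spearman's rho was 0.69, 0.72, 0.75 and 0.62, with permutation adjusted p of 0.01095, 0.00684, 0.00495 and 0.0191. The sign was the same in both diets: r was 0.69, 0.85, 0.76 and 0.77 among the high calcium rats, and 0.84, 0.65, 0.68 and 0.50 among the low calcium rats. With slide means subtracted too it was 0.70, 0.67, 0.65 and 0.60.

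The other 5 members did not pass. Pfkfb3 had r = 0.42 (permutation p = 0.0805, adjusted 0.145) and Stc1 r = -0.47 (permutation p = 0.117, adjusted 0.175), while Arnt had 0.27, Vegfa 0.10 and Hif1a 0.02. The relation of the alpha subunits to each other depended on rats and processing: r was 0.39 without high calcium rats 18 and 2 and 0.70 with median centring (permutation adjusted p = 0.0184). Hif1a had r = -0.34 with Epas1 among the high calcium rats and 0.52 among the low calcium rats, a difference that was not tested.

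These relations rest in part on few rats. Without the 2 rats farthest from the Epas1 median, high calcium rats 18 and 2, r was 0.61 for Egln1, 0.57 for Egln3, 0.64 for Bnip3 and 0.52 for Slc2a1. Leaving out single rats ended the Slc2a1 call without high calcium rat 18 (r = 0.46, permutation adjusted p = 0.176) or low calcium rat 5 (r = 0.48, permutation adjusted p = 0.119), and ended none of the other 3. With both of these rats left out, a choice made after their values were seen, 0 of the 9 relations passed: r was 0.64 for Egln1 and for Bnip3 (permutation adjusted p = 0.0668 for each), 0.42 for Egln3 (0.299) and 0.25 for Slc2a1 (0.649). Without high calcium rat 3 and low calcium rat 16, 3 passed, with Slc2a1 at r = 0.56 (permutation adjusted p = 0.0524). The Cy5 channel alone left 2 calls, Egln3 and Slc2a1, and median centring gave 7.

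**Figure D3:**
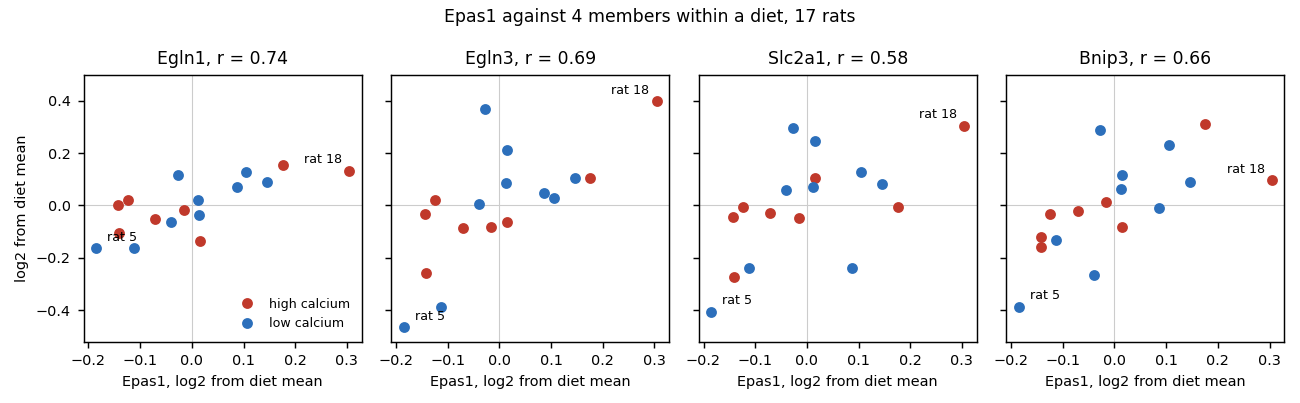
Log2 ratios of Egln1, Egln3, Slc2a1 and Bnip3 (vertical axes) against Epas1 (horizontal axes), each as the distance from the rat's diet mean, for 8 high calcium rats in red and 9 low calcium rats in blue. All 4 clouds slope upward (r = 0.74, 0.69, 0.58 and 0.66), with high calcium rat 18 at the upper right and low calcium rat 5 at the lower left.

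The same was computed for the 36 pairs of the other 9 members, a step added after the Epas1 relations had been seen. Of these, 7 passed and 12 had an unadjusted permutation p under 0.05. The share of all gene pairs under that p was not computed, so nothing is read from the 12. All 7 were positive, and the median r of the 36 was 0.22. Over all pairs of genes other than Epas1, 1.45% had an r of at least 0.66, the lowest of the 7, and the median r was 0.01. Egln3 and Slc2a1 had the highest (r = 0.88, rho = 0.80, permutation p = 1e-05, the smallest that 100000 resamples can give, adjusted 0.00036), with r = 0.89 in the high calcium rats and 0.88 in the low calcium rats. Egln1 followed Bnip3 (r = 0.82, rho = 0.83, permutation adjusted p = 0.00108) and Egln3 (r = 0.80, rho = 0.81, permutation adjusted p = 0.003). Egln3 with Bnip3 (r = 0.74, rho = 0.81) and Slc2a1 with Bnip3 (r = 0.67, rho = 0.67) completed a group of 4 in which 5 of the pairs passed. The pair Egln1 and Slc2a1 stood at r = 0.57 and did not pass. Hif1a passed with 2 members, Pfkfb3 (r = 0.73, rho = 0.61) and Slc2a1 (r = 0.66, rho = 0.63). For both of these the rho did not pass (permutation adjusted p = 0.0642 and 0.0550). Within single diets the other 6 pairs differed in how alike r was. For Egln1 it was 0.83 in high and 0.84 in low calcium rats with Bnip3, and 0.80 in each with Egln3. For Egln3 with Bnip3 r was 0.60 in high and 0.80 in low calcium rats. Slc2a1 stood at 0.40 in high against 0.77 in low calcium rats with Bnip3, and at 0.25 against 0.94 with Hif1a. Hif1a with Pfkfb3 had 0.54 in high and 0.87 in low calcium rats. These differences between diets were not tested.

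The count of 7 was 3 without low calcium rat 5, 4 without low calcium rat 15, 13 without high calcium rat 2, 4 without high calcium rat 18 and low calcium rat 5, 11 with slide means subtracted and 20 with median centring. Egln1 with Bnip3, Egln1 with Egln3 and Egln3 with Slc2a1 passed without each rat in turn, with r of at least 0.78, 0.75 and 0.83, and with rats 18 and 5 both left out (r = 0.79, 0.70 and 0.78). Slc2a1 with Bnip3 failed without any 1 of 8 rats (high calcium rats 3 and 17, low calcium rats 4, 5, 7, 8, 15 and 16), Hif1a with Slc2a1 without low calcium rats 5, 8, 15 or 16, Egln3 with Bnip3 without low calcium rats 5 or 15, and Hif1a with Pfkfb3 without low calcium rat 5.

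**Figure D4:**
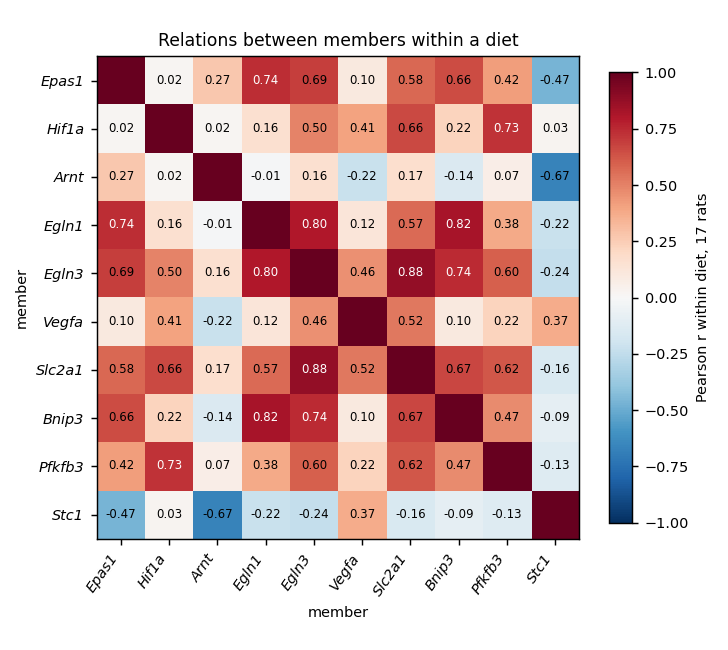
Pearson's r between each pair of members (rows and columns) over 17 rats after each diet's mean was subtracted, on a colour scale from -1 in blue to 1 in red. Egln1, Egln3, Slc2a1 and Bnip3 form a block with r from 0.57 to 0.88, to which Epas1 adds 0.58 to 0.74, while Arnt, Vegfa and Stc1 stay mostly pale against the rest. Exceptions include Arnt with Stc1 (r = -0.67) and Vegfa with Slc2a1 (r = 0.52), neither of which passed after adjustment.

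Relations of the 10 members with the 7 marker lists and with the share of probes above background were computed the same way. Of 80 such relations 0 passed and 6 had an unadjusted permutation p under 0.05. The share over all genes was not computed, so nothing is read from the 6. The smallest permutation adjusted p was 0.322 (Stc1 with the macrophage markers, r = 0.74, rho = 0.62, and r = 0.36 without the 2 rats farthest out). Without the 2 rats farthest from the gene's median, r with the neutrophil markers was larger for Egln3 (0.75, against 0.44 with all rats) and for Slc2a1 (0.63, against 0.42), as was r of Vegfa with the endothelial markers (0.54, against 0.33). For Epas1 with all rats, the lowest r with a marker list was -0.30 for fibroblast markers (rho = -0.11, permutation adjusted p = 0.68). The highest was 0.17 for epithelial markers, with -0.24 for macrophage and -0.08 for endothelial markers. Leaving out the 2 rats farthest from the Epas1 median gave 0.06 for fibroblast, -0.18 for epithelial, 0.38 for macrophage and 0.31 for endothelial markers. The sign also turned for neutrophil (-0.09 to 0.27) and smooth muscle markers (-0.04 to 0.15). It held for red blood cell markers (-0.19 to -0.10). These changes were not tested.

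Across the array, the named genes whose ratios followed Epas1 most closely within a diet, of 11598 compared over 17 rats, were Fyco1 (an adaptor of autophagosome transport, r = 0.81), Ablim1 (an actin-binding protein, 0.80), Efna1 (an ephrin ligand, 0.80), Cyp2j4 (a cytochrome P450, 0.78) and Rhob (a small GTPase, 0.78). At the opposite end stood Ube2v2 (a ubiquitin-conjugating enzyme variant, r = -0.83), Wdr41 (-0.77), Slc18b1 (a polyamine transporter, -0.76), Nsa2 (a ribosome biogenesis factor, -0.75) and Dusp19 (a dual-specificity phosphatase, -0.75). These are extremes of many and are given as a description, with no test.

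Other genes of the pathway, in 5 lists, were compared between the diets in the same limma fit. Of 81 genes 73 could be tested, 37 higher and 36 lower, and 0 passed after Benjamini-Hochberg adjustment over all 27083 probes. At an unadjusted p under 0.05 stood 16 of the 73 (21.9%, beside 8.79% of all probes and 9.03% of all 23134 genes tested), 8 of them higher and 8 lower. That count was 9 without high calcium rat 18 and 9 to 20 over single rats, 10 with the mean of each gene's probes and 3 with median centring. The lists were chosen with earlier results of these data known, so nothing is read from the 21.9%. Without high calcium rat 3 the adjusted count was 3 (Eno2, Gbe1 and Angpt2), where 193 of all probes passed. It was 0 without any other single rat. With high calcium rat 3 and low calcium rat 16 both left out it was 4, as Cxcr4 joined the 3, where 329 of all probes passed. That pair was not planned. Its rats had fibroblast marker means on the other side of 0 from their group means. Low calcium rat 15 met that criterion too, at -0.12, but was not in the pair. The criterion thus does not define the pair, and no fit left out all the rats that met it. The count without the pair is a description only. The genes named below are those with the smallest p in each list and direction, with Slc40a1 added as a known target, and none passed with all rats. Where a named gene had further probes they are given, except for Cited2, Crebbp, Elob, Gpi and Tfrc, whose probes all had 1 sign.

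The regulators of the factors had a median difference of 0.00 over 16 genes, beside 0.01 over all genes, with 9 higher and 7 lower. Cited2, a feedback inhibitor that competes for p300, averaged 0.09 ± 0.17 in high calcium rats and -0.08 ± 0.16 in low calcium rats, a difference of 0.16 ± 0.08 (limma adjusted p = 0.551). The coactivators Ep300 and Crebbp differed by 0.10 ± 0.05 and 0.09 ± 0.05, though a second Ep300 probe had the opposite sign (-0.05 ± 0.06). Hif1an, the asparagine hydroxylase FIH, differed by -0.05 ± 0.05, and the elongins Eloc and Elob, parts of the von Hippel-Lindau ligase, by -0.04 ± 0.04 and -0.04 ± 0.05. These last 3 turned sign under 1 alternative each, the series matrix for Hif1an and median centring for the elongins.

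Glycolysis targets had a median of -0.01 over 22 genes, with 10 higher and 12 lower. Gbe1, the glycogen branching enzyme, had the smallest p of the pathway: 0.21 ± 0.08 in high calcium rats and -0.01 ± 0.07 in low calcium rats, a difference of 0.21 ± 0.04 (limma adjusted p = 0.131). Its dimmer probe had the opposite sign, -0.08 ± 0.05. Pfkfb2, a heart-type relative of Pfkfb3, differed by 0.11 ± 0.04, again with a dimmer probe of the opposite sign (-0.05 ± 0.04), and Gpi, glucose-6-phosphate isomerase, by 0.10 ± 0.04. On the lower side, Eno2, neuron-specific enolase, averaged -0.26 ± 0.28 in high calcium rats and 0.14 ± 0.17 in low calcium rats, a difference of -0.39 ± 0.10 (limma adjusted p = 0.181). Pgk1, phosphoglycerate kinase, differed by -0.11 ± 0.08, and Pfkfb4 by -0.08 ± 0.05.

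Of the vascular, survival, acid-base and collagen-modifying targets, 20 were tested, 10 higher and 10 lower (median -0.01). The 3 at an unadjusted p under 0.05 (15%, beside 9.03% of all genes tested) were all lower, and nothing is read from their direction. Angpt2, angiopoietin 2, averaged -0.24 ± 0.34 in high calcium rats and 0.16 ± 0.22 in low calcium rats, a difference of -0.40 ± 0.12 (limma adjusted p = 0.281). Plod2, a collagen lysyl hydroxylase, differed by -0.27 ± 0.11 and Lox, the collagen cross-linking lysyl oxidase, by -0.31 ± 0.14. Their dimmer probes lay nearer to 0, at -0.20 ± 0.08 for Angpt2, -0.04 ± 0.07 for Plod2 and -0.07 ± 0.07 for Lox. Without high calcium rat 3 Angpt2 stood at -0.48 ± 0.11 (limma adjusted p = 0.0482), where 193 of all probes passed. Angpt2 did not pass without any other single rat. On the higher side were the vasodilator peptide Adm (0.23 ± 0.13), endothelin 1 (Edn1, 0.14 ± 0.12) and the Myc antagonist Mxi1 (0.09 ± 0.05). Beside these stand the marker values above: in the same fit the median difference was -0.12 for endothelial and -0.47 for fibroblast markers, and their part in the lower values was not tested.

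Iron genes, of which Slc11a2, Cybrd1 and Slc40a1 are known targets of HIF-2alpha in mouse intestine, had a median of -0.05 over 10 genes, 5 higher and 5 lower. The iron importer Slc11a2 (DMT1) differed by -0.16 ± 0.06 and the ferric reductase Cybrd1 by -0.17 ± 0.07, while a second probe of Slc11a2 gave 0.05 ± 0.08. Slc40a1, also among these targets, differed by 0.03 ± 0.06. The ferroxidase Cp averaged -0.20 ± 0.28 in high calcium rats and 0.07 ± 0.12 in low calcium rats, a difference of -0.27 ± 0.09 (limma adjusted p = 0.353). Its other probes gave -0.22 ± 0.09, -0.11 ± 0.07 and -0.04 ± 0.05. Higher values were seen for the iron hormone Hamp (0.11 ± 0.04), the transferrin receptor Tfrc (0.19 ± 0.12) and the ferroxidase Heph (0.05 ± 0.06).

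Barrier targets numbered 5 tested of 8, with 3 higher and 2 lower and a median of 0.16. Tff3, a trefoil peptide of goblet cells, averaged 0.15 ± 0.23 in high calcium rats and -0.14 ± 0.16 in low calcium rats, a difference of 0.29 ± 0.09 (limma adjusted p = 0.259), and its second probe gave 0.24 ± 0.08. The adenosine receptor Adora2b differed by 0.22 ± 0.09 and the creatine kinase Ckb by 0.16 ± 0.07. Beside these higher values, 7 of 10 epithelial markers were also higher, by a median of 0.08 over the list, and their part was not tested. Cxcr4, a chemokine receptor found largely on leukocytes, differed by -0.28 ± 0.08 (limma adjusted p = 0.21), and its second probe gave -0.27 ± 0.08. The macrophage and neutrophil markers, with median differences of -0.13 and -0.26, were lower in the same rats, and their part in the Cxcr4 value was not tested. Nt5e, which makes adenosine, differed by -0.12 ± 0.12.

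**Figure D5:**
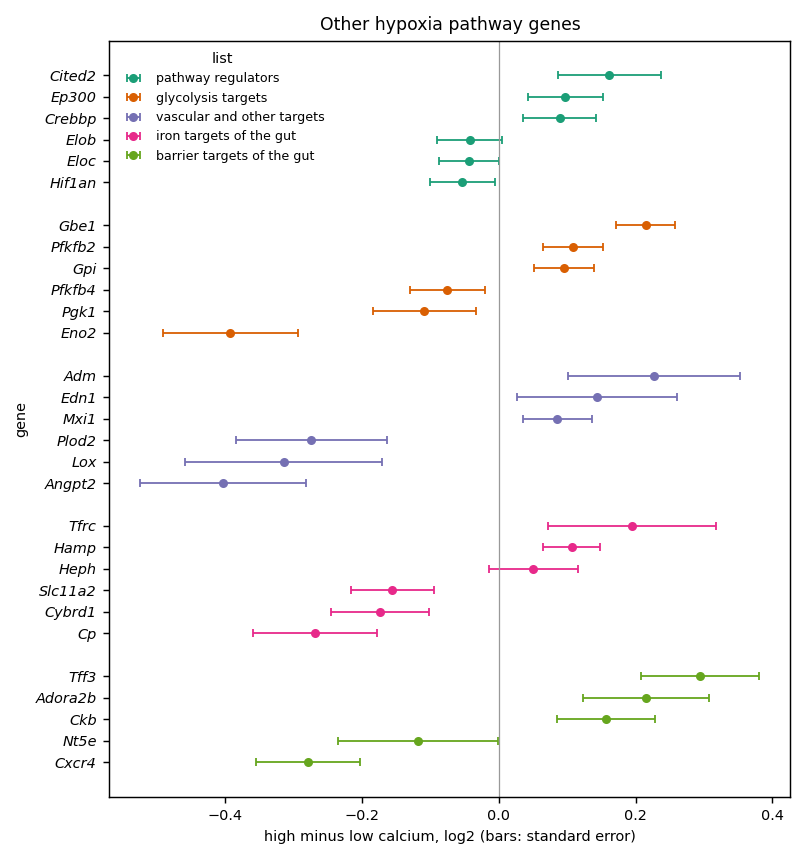
High minus low calcium difference on the log2 scale (horizontal axis, bars are the standard error of limma's fit) for the 29 pathway genes named by p within each list and direction (vertical axis), coloured by list. Values run from -0.40 for Angpt2 to 0.29 for Tff3, with both directions in each list, and 0 genes passed after adjustment over all probes.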

How the data were processed

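Colon mucosa RNA of 17 rats was measured on 2-colour arrays, 1 per rat, with no dye swap, which leaves any dye effect equal in the 2 diets. Groups came from the sample titles, and the labels were read as separate animals. Per the file headers, the deposited scanner files hold spot intensity values from version 9.5.1.1 of Agilent Feature Extraction (version 9.5 in the submitters' processing notes). Log2 values for 28213 of 45018 features stand in the deposited series matrix; no source used here tells how the authors made them. Its array medians were all 8.76. With genes and arrays centred it followed log2 Cy5 over Cy3 without background subtraction (r = 0.98), which settles its direction and log scale but not its offset. It served as an alternative, with 0 columns unused.

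Intensities went through normexp (offset 50) and within-array loess in limma 3.58.1 under R 4.3.3, with control and outlier spots at weight 0. The 43379 non-control spots, outliers set to missing, were then averaged to 41012 probes. Testing required a Cy5 signal well over background on 8 or more arrays, which left 27083 probes. Centring each array hides a change shared by most genes. The median difference over all probes was at most 0.04 under any setting. Each setting's normalisation keeps this value near 0, so it cannot show whether such a change occurred. Symbols were brought up to date with RefSeq GRCr8, and each gene took its brightest probe. Diets were compared with lmFit and eBayes, 2-sided, without covariates. Relations between members, and the same relations over all genes as their background (added after the data were seen), used Python 3.11.15 with numpy 2.4.6 and scipy 1.17.1. Both steps were tested on simulated data.

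The members and the gene lists were chosen with earlier results of these data known. For the lists, 1 gene is not reported here and enters no count of its list. By rule the text names all members, up to 3 genes per pathway list and direction with the smallest p, and the 5 named genes with the highest and the 5 with the lowest r to Epas1. Slc40a1 was added outside this rule. Alternatives to the background correction, normalisation, channel, filter, slide, weights, probe rule and source of values were tried, and each rat was left out in turn.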

Additional observations from a re-analysis of the deposited data

Results flagged for a closer look

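In 7 of 96 groups of 8 or 9 rats, 1 rat lay far from the others of its diet by Dixon's 95% criterion; chance alone marks about 1 in 20 groups. Among the members these were Arnt, highest in high calcium rat 18 (0.23, with the next rat at 0.05), and Pfkfb3, lowest in low calcium rat 5 (-0.26, with the next at -0.04). Among the pathway genes they were Crebbp in high calcium rat 18 (0.27, next 0.05) and Adm in high calcium rat 17 (-0.48, next 0.10). Among the marker lists, the smooth muscle mean was lowest in low calcium rat 15 (-0.27, next -0.04), and the red blood cell mean was highest in high calcium rat 13 (0.33, next -0.04) and in low calcium rat 5 (0.41, next 0.04). Rats 18 and 5 are also those without which 0 relations of Epas1 passed.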

How the results depend on the processing

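Over 31 settings, some of which cannot change a probe's difference, that of Epas1 ran from 0.18 to 0.44, with its sign fixed by the choice of the set. Those of Hif1a, Egln1 and, over 29 settings, Stc1 had 1 sign; the sign changes of the other members are given with them. Leaving out each rat in turn gave 0.20 to 0.26 for Epas1. The count of members at an unadjusted p under 0.05, from which nothing is read, was 2 with no background correction, processed signals, median centring or Cy5 alone, where Stc1 joined Epas1, and 2 with high calcium rat 18 and low calcium rat 5 left out together, where Pfkfb3 did; it was 1 to 2 over single rats (2 without high calcium rat 9). Probes at an unadjusted p under 0.05 numbered 779 with median centring, 3716 with array weights and 1588 to 3081 over single rats. Probes past the adjusted threshold numbered 0 to 193 over single rats, 193 without high calcium rat 3 and 38 without low calcium rat 16. Without both, 329 probes and 4 pathway genes passed. That pair was not planned. Low calcium rat 15, which was not in it, also had a fibroblast marker mean on the other side of 0 from its group mean. Over single rats 0 to 3 pathway genes passed.

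Relations of Epas1 that passed numbered 3 to 5 over single rats, 7 with median centring, 2 with Cy5 alone and 0 without rats 18 and 5; those among the other members numbered 3 to 13, 20 with median centring, 11 with slide means subtracted and 4 without rats 18 and 5. With median centring r turned negative for Epas1 with Arnt (-0.36) and Pfkfb3 (-0.045) and for Hif1a with Pfkfb3 (-0.018), and with slide means subtracted for Epas1 with Hif1a (-0.035). Median centring also brought Epas1 past the adjusted threshold with Hif1a (0.70), Vegfa (0.72) and Stc1 (-0.64), the series matrix with Vegfa (0.58), and leaving out high calcium rat 2 or 9 with Pfkfb3 (0.58 and 0.51). Without rats 18 and 5, r of Epas1 was -0.42 with Hif1a, -0.12 with Arnt, -0.071 with Vegfa, -0.015 with Pfkfb3 and 0.056 with Stc1. Over single rats it ran from -0.21 to 0.31 with Hif1a, -0.35 to 0.47 with Arnt, -0.012 to 0.19 with Vegfa and -0.58 to 0.011 with Stc1. The cause of these changes was not tested. No paired analysis was possible because the diets share no replicate numbers. Stc1, Arnt and Pfkfb3 had the dimmest member probes.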
